A study of Mus musculus with 9 samples.

Results

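The transcripts described here encode 9 interferon-inducible GTPases of the mouse, 4 immunity-related GTPases (IRG; Irgm1, Irgm2, Igtp and Iigp1), 3 guanylate-binding proteins (GBP; Gbp2, Gbp3 and Gbp7) and the Mx proteins Mx1 and Mx2. They were chosen by gene symbol, with earlier results of these data known, and make up 9 of the 49315 genes in the count table. RNA-seq of polyA-selected RNA from the brains of wild-type male C57BL/6J mice was used, an inbred strain, so the comparison covers 1 sex and 1 genetic background. The young group had 5 mice (3 months of age) and the old group had 4 (33 months), with no treatment or transgene in either. An old replicate 2 was not analysed here, and statements on every old mouse cover old replicates 1, 3, 4 and 5. The question was how transcript abundance differed with age. The libraries held 14229259 to 21150439 gene counts, of which the 9 members together took 381 to 994.

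Interferons bind receptors at the cell surface, and the kinases and transcription factors behind these receptors switch on a large set of defence genes. The IRG and GBP proteins are among the most strongly induced products of interferon gamma in mouse cells and act on the membranes of vacuoles that hold microbes. Within the IRG family, Irgm1, Irgm2 and Igtp (also called Irgm3) are the regulatory members that sit on the cell's own membranes, while Iigp1 (also called Irga6) is an effector that loads onto foreign vacuoles. The GBPs follow onto these membranes and help to set off inflammasomes. Mx proteins are dynamin-like antiviral GTPases that respond mainly to type I and type III interferons, and laboratory strains including C57BL/6 mostly carry defective Mx alleles. In the brain, microglia, astrocytes and endothelial cells can all respond to interferons.

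The members with a promoter window share a sequence feature before their RefSeq starts. Promoter windows from RefSeq (build GRCm38.p6, 250 bases before to 50 after each gene's start) were found for 6 of the 9 members, and all 6 held GAAANNGAAA on at least 1 strand, the core of the interferon-stimulated response element. Over all 32851 windows of this length, 3.44% held it, and counted by gene 3.99% of 27025 genes did. The windows of Irgm2, Igtp and Gbp7 also held TTCNNNGAA, the palindrome of the gamma-activated site. Of all windows, 8.3% held this palindrome (9.55% counted by gene), and 0.454% held both. The 110 bases before each start are shown because these letters lie in them. They run 5′ to 3′ along the gene's strand, and capitals mark both motifs (on the opposite strand GAAANNGAAA reads TTTCNNTTTC).
Irgm1: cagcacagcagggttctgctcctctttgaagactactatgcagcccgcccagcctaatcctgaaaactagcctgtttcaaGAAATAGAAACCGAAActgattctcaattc
Irgm2: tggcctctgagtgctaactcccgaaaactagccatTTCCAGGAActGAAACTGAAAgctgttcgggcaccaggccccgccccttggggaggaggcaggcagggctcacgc
Igtp: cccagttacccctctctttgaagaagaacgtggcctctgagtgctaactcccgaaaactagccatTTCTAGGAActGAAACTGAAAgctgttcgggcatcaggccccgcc
Gbp2: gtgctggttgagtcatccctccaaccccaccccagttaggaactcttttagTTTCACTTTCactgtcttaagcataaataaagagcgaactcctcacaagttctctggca
Gbp3: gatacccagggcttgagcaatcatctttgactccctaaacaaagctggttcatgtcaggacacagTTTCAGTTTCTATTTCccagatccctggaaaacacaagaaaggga
Gbp7: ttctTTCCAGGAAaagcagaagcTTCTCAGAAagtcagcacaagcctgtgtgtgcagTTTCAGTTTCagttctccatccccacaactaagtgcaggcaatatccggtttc

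These windows lie at chr11:48871421-48871530 (Irgm1, minus strand), chr11:58214867-58214976 (Irgm2), chr11:58199446-58199555 (Igtp), chr3:142620553-142620662 (Gbp2), chr3:142559934-142560043 (Gbp3) and chr3:142530226-142530335 (Gbp7), the last 5 on the plus strand. Gbp3 had a second start with a window of its own, which held neither motif. The GAAANNGAAA letters began between 64 (Irgm2) and 30 (Irgm1) bases before the start. The starts are those of RefSeq and do not all match the gene spans given below, which come from GENCODE. The printed windows of Irgm1 and Irgm2 lie inside these spans, and those of Gbp2 and Gbp3 partly do. Irgm1 and Gbp3 each held a second, overlapping copy 6 bases on. In Irgm2 and Igtp the TTCNNNGAA letters began 11 bases before the GAAANNGAAA letters, and 78 of the 80 bases that can be aligned between their printed stretches were identical. The same spacing of 11 bases was found in the windows of the IRG genes Tgtp1, Tgtp2 and Gm12185. Elsewhere, GAAANNGAAA was held by 5 of 8 windows of other IRG genes, 2 of 2 of other GBP genes and 1 of 1 of giant GTPases. In the interferon pathway, windows of 2 of 8 ligands, 0 of 5 receptors, 2 of 10 signalling genes and 1 of 7 brakes held it. So did windows of 2 of 16 vacuole targeting genes, 0 of 12 inflammasome genes and 0 of 13 constitutive dynamin relatives. Among tested genes with a window, 47 of 453 with the letters (10.4%) were called higher in old brain, and 241 of 12127 without them (1.99%). The 6 members with a window are among the 453, and the letters are a description of the window, not a shown binding site.

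All 9 members were higher in every old mouse than in every young mouse in CPM, counts scaled to library size. In TPM, a unit described below, this held for 8 of the 9. Of all 18492 genes tested, a set without Mx1, 6.5% showed it in CPM. With edgeR's quasi-likelihood test and Benjamini-Hochberg adjustment over the 18492 genes, 7 of the 9 members were called higher in old brain (adjusted p under 0.05 and a log2 fold change over 0.58), where 2.28% of all genes tested were. Mx2 did not pass the adjusted threshold, and Mx1 was too sparse to be tested. The 8 tested members had at least 10 counts in each of the 5 young libraries, so none passed the filter on low counts through the old group alone. Their median log2 fold change was 0.95, against -9.2e-05 over all genes tested. Fold changes refer to a share of the counted polyA transcripts of the brain, after normalization. Whether cells that express these genes were more numerous or held more of the transcript cannot be told apart in bulk tissue.

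The 4 IRG transcripts were about doubled in old brain. Irgm1 (ENSMUSG00000046879, GRCm38 chr11:48861968-48871683, minus strand) protects the cell's own membranes from IRG effectors and takes part in autophagy. Its level in CPM (counts scaled to the library's total over the tested genes and its TMM normalization factor) was 6.64, 6.58, 7.08, 7.73 and 6.80 in young replicates 1 to 5, and 14.8, 15.1, 13.4 and 14.7 in old replicates 1, 3, 4 and 5. The lowest old mouse was 5.68 CPM above the highest young mouse, a gap wider than the whole spread within either age. The young mean of 6.96 ± 0.469 CPM (SD, n = 5) compared with an old mean of 14.5 ± 0.747 CPM (SD, n = 4). The log2 fold change was 1.05 (SE 0.078, edgeR adjusted p = 5.6e-06). Irgm1 ranked 7 by p among all genes tested.

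Igtp and Irgm2 overlap on chromosome 11, where nearly all of the annotated span of Igtp lies within that of Irgm2. They share 162 exonic bases on the same strand, so reads in this stretch could not be given to one or the other. Igtp (ENSMUSG00000078853, chr11:58199556-58207591, plus strand) measured 2.61, 2.82, 2.68, 3.19 and 3.83 CPM in the young mice and 5.63, 6.14, 6.84 and 4.81 CPM in the old mice. Its log2 fold change was 0.95 (SE 0.145, edgeR adjusted p = 0.0012). Irgm2 (ENSMUSG00000069874, chr11:58199618-58222782, plus strand) measured 3.40, 4.43, 4.12, 3.62 and 3.64 CPM in the young mice and 5.84, 10.1, 7.61 and 6.40 CPM in the old mice. Old replicate 3 stood highest for Irgm2, while old replicate 4 did for Igtp. The log2 fold change of Irgm2 was 0.95 (SE 0.156, edgeR adjusted p = 0.0019).

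Iigp1 (ENSMUSG00000054072), the effector among the 4, was the least abundant of them per length and had the highest fitted fold change of the tested members. It measured 1.78, 1.05, 0.962, 1.69 and 1.36 CPM in the young mice and 3.29, 4.73, 2.41 and 2.52 CPM in the old mice. The ages did not overlap, but the lowest old mouse was only 0.631 CPM above the highest young mouse. The mean rose from 1.37 ± 0.366 (SD, n = 5) to 3.24 ± 1.07 CPM (SD, n = 4), with a log2 fold change of 1.20 (SE 0.239, edgeR adjusted p = 0.0064). Given the standard errors, the fold changes of the 4 IRG transcripts, 0.95 to 1.20, were not ordered beyond their error.

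**Figure D1:**
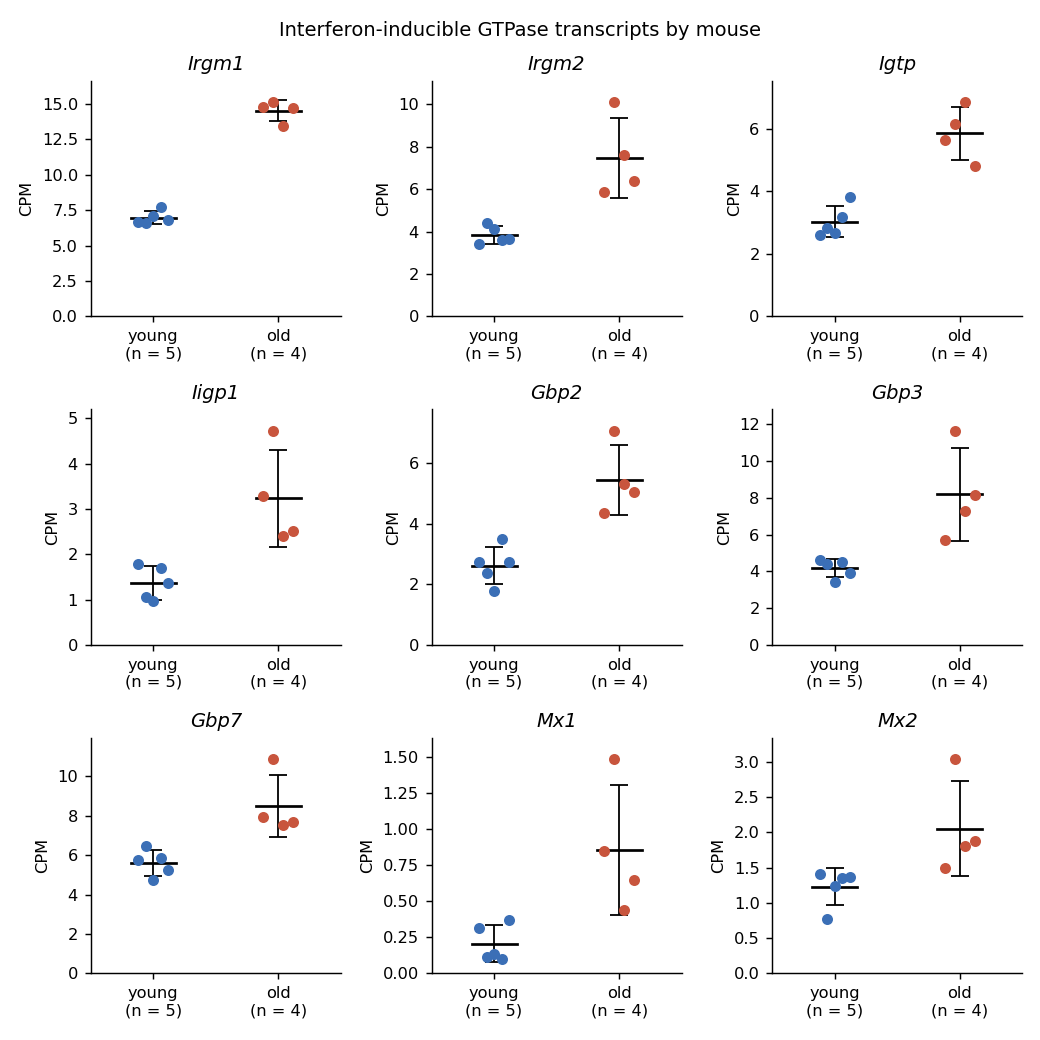
CPM (y axis, linear, from 0) of the 9 members in each mouse, young in blue (n = 5) and old in red (n = 4); points are mice, horizontal lines the mean and error bars the SD. All old points lie above all young points in each panel, by 5.68 CPM for Irgm1 and by 0.076 CPM for Mx2.

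The 3 GBP genes lie in a cluster on the plus strand of chromosome 3 and were likewise higher in old brain. Gbp2 (ENSMUSG00000028270, chr3:142620602-142638008), a large GTPase that coats and opens pathogen vacuoles, measured 2.72, 2.38, 1.79, 3.48 and 2.72 CPM in the young mice and 4.36, 7.05, 5.31 and 5.05 CPM in the old mice. Its log2 fold change was 1.03 (SE 0.183, edgeR adjusted p = 0.0033), and it shares 24 exonic bases with Mir6381 on the opposite strand. Gbp3 (ENSMUSG00000028268, chr3:142560026-142573209) measured 4.60, 4.43, 3.44, 4.49 and 3.89 CPM in the young mice and 5.68, 11.6, 7.28 and 8.16 CPM in the old mice. The old mice were spread widely for this gene, with old replicate 1 lowest and old replicate 3 highest, and the log2 fold change was 0.95 (SE 0.176, edgeR adjusted p = 0.0041). GBP genes are close paralogs, and only uniquely mapped reads were counted, so their values are uncertain where the copies are identical.

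Gbp7 (ENSMUSG00000040253, chr3:142530342-142550149), which has been linked to the assembly of the phagocyte oxidase, rose least of the called members. It measured 5.75, 6.47, 4.74, 5.85 and 5.25 CPM in the young mice and 7.92, 10.9, 7.55 and 7.69 CPM in the old mice. Old replicate 3 stood well above the other old mice, which lay close together. The log2 fold change of 0.58 (0.584 before rounding, SE 0.128, edgeR adjusted p = 0.010) was just past the threshold of 0.58. It was 0.45 without old replicate 3, where the adjusted p of 0.026 (edgeR) stayed under 0.05. It was also under 0.58 without young replicate 3 (0.53) or young replicate 5 (0.56). On log2(TPM + 1) and log2(TPM + 0.1) Gbp7 was not called (limma adjusted p = 0.39 and 0.405). Gbp7 shares 637 exonic bases with the annotated gene Gm43802 on the same strand.

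The Mx transcripts were the scarcest. Mx2 (ENSMUSG00000023341, chr16:97535308-97560900, plus strand), listed by GENCODE as a polymorphic pseudogene, measured 1.41, 0.775, 1.24, 1.35 and 1.36 CPM in the young mice and 1.49, 3.03, 1.81 and 1.88 CPM in the old mice. Old replicate 1 exceeded young replicate 1 by only 0.076 CPM. The log2 fold change of 0.71 (SE 0.240) had an edgeR adjusted p of 0.073, and it was 0.48 without old replicate 3. Mx1 (ENSMUSG00000000386, chr16:97447035-97462907, minus strand) had 6, 2, 2, 2 and 6 counts in the young libraries and 16, 21, 8 and 11 in the old libraries. Summed, these were 18 young and 56 old counts, a ratio per normalized library size of 4.04 with an exact 95% interval of 2.34 to 7.30 that covers counting error only.

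Levels between genes were compared in TPM, a unit the authors scaled by gene length and library total. In young brain the median TPM was 3.57 for Igtp, 3.47 for Gbp3, 2.91 for Irgm1, 2.79 for Gbp7, 2.5 for Irgm2 and 2.42 for Gbp2, followed by 1.05 for Iigp1, 0.843 for Mx2 and 0.129 for Mx1. The first 6 interleaved from mouse to mouse. Gbp7 was above Iigp1 in TPM in 5 of 5 young and 4 of 4 old mice, and Mx2 was above Mx1 in as many. In old brain the median TPM was 6.63 for Igtp, 5.74 for Irgm1, 5.55 for Gbp3, 4.82 for Gbp2, 4.43 for Irgm2 and 3.45 for Gbp7, with 2.32 for Iigp1, 1.19 for Mx2 and 0.510 for Mx1. In the old mice Gbp2 was above Irgm2, and Irgm2 above Gbp7, in 4 of 4, whereas Gbp3 exceeded Irgm1 in only 1 of 4. In TPM every old mouse was above every young mouse for 8 of the 9 members, as for 1.35% of all tested genes. The members were chosen with earlier results of these data known, so these shares are a description. The ages overlapped for Mx2, with a highest young value of 1.17 and a lowest old value of 1.04.

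**Figure D2:**
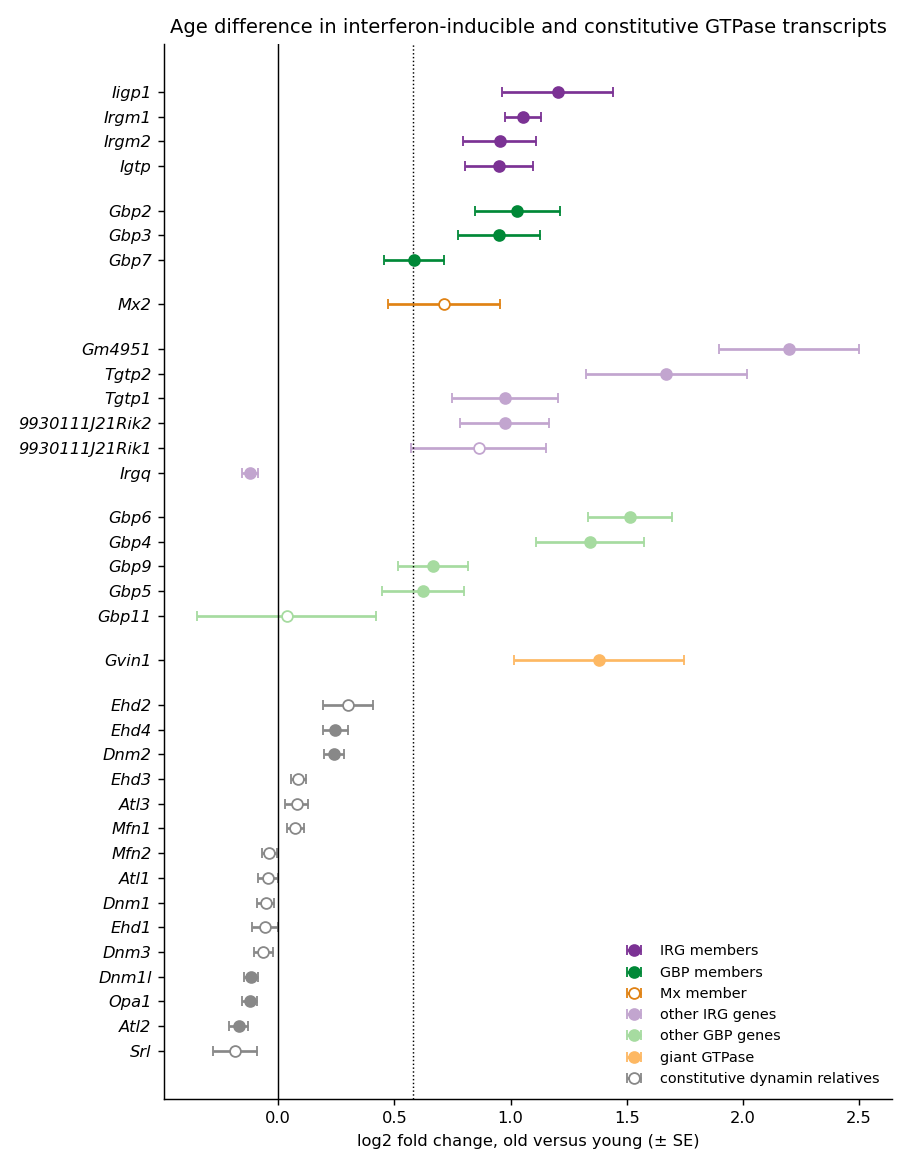
Log2 fold change of old versus young brain (x axis) with its standard error (bars) for each tested gene of the interferon-inducible and constitutive GTPase lists (y axis); filled points had an edgeR adjusted p under 0.05, and the dotted line marks 0.58. The 8 tested members lie between 0.58 and 1.20, and the constitutive dynamin relatives between -0.19 and 0.30.

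The members were next compared with other GTPases of the same families, a comparison in which 6.2% of all tested genes were higher and 4.83% lower at an adjusted p under 0.05. Of 12 other IRG genes, 6 were tested and 4 of these rose. They were the T cell-specific GTPase genes Tgtp1 (log2 fold change 0.97) and Tgtp2 (1.67), which are near-identical copies and therefore uncertain, 9930111J21Rik2 (0.97) and Gm4951 (2.20). Tgtp2 and Gm4951 reached 10 counts in 1 and 0 of the 5 young libraries and so were tested only through the old group, where they are high, which leaves 2 of the 4 that the young libraries alone would have kept. By contrast, Irgq, a quasi-IRG gene with the most counts of the list, fell by 0.12 on the log2 scale (edgeR adjusted p = 0.041). 9930111J21Rik1, a close copy of 9930111J21Rik2, had a log2 fold change of 0.86 (edgeR adjusted p = 0.072) and was also tested only through the old group. Of 8 other GBP genes, 5 were tested and 4 rose, namely Gbp6 (1.51), Gbp4 (1.34), Gbp9 (0.67) and Gbp5 (0.62), while Gbp11 had a log2 fold change of 0.04 (SE 0.384). Gbp4, Gbp8 and Gbp9 share annotated exonic bases, and Gbp6 and Gbp10 are close copies, so these values are uncertain too. Gbp2b, the gene of GBP1, had 3 counts in all. The very large inducible GTPase Gvin1 rose by 1.38 (SE 0.367, edgeR adjusted p = 0.027), and it was the only giant GTPase of 4 in the table that could be tested. It reached 10 counts in 0 of the 5 young libraries and likewise was tested only through the old group.

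Constitutive dynamin relatives, which shape, divide or fuse membranes, were read beside them. Of 15 tested, 2 rose and 3 fell, and the median log2 fold change was -0.04. Dnm2, the ubiquitous dynamin, rose by 0.24 and the endocytic ATPase gene Ehd4 by 0.25. The mitochondrial fission and fusion genes Dnm1l and Opa1 each fell by 0.12, and the endoplasmic reticulum atlastin Atl2 fell by 0.17. Dnm1, the neuronal dynamin and the gene with the most counts, had a log2 fold change of -0.05 (edgeR adjusted p = 0.39).

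Of the nearest protein-coding genes outside the lists on either side of the members, none that could be tested passed. Those beside Mx2 were not tested. Of 11 distinct protein-coding neighbours outside the lists, 7 were tested, and their median log2 fold change was 0.18 (range -0.13 to 0.40). Their edgeR adjusted p ranged from 0.079 for Pdlim5, left of the GBP cluster, to 0.74 for Mrpl22, left of Igtp. Trim7 lies 9759 bases from Irgm1 and had a log2 fold change of 0.18 (SE 0.137), and Bace2 lies 4099 bases from Mx1 with one of -0.13 (SE 0.191).

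**Figure D3:**
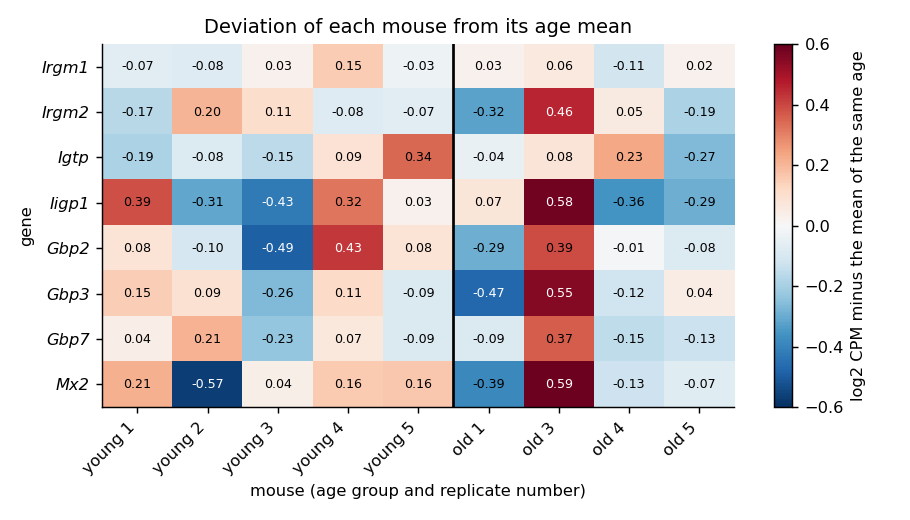
Log2 CPM of the 8 tested members (rows) in each mouse (columns) as the difference from the mean of its own age, printed in each cell and coloured from blue (lower) to red (higher). Old replicate 3 is above its age mean for all 8 members, by 0.06 for Irgm1 and by 0.59 for Mx2.

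Within an age the members varied together to different degrees. The deviations of the 8 tested members from the mean of their age had a median Pearson r of 0.37 over 28 pairs (9 mice, range -0.09 to 0.81), and 26 pairs were positive. The points of a pair share library and depth, so these values are a description. The 3 GBP pairs had r between 0.66 and 0.81, highest for Gbp3 with Gbp7. The 6 IRG pairs had r between -0.09 and 0.44, and the r of Irgm1 with the other 7 members also lay between -0.09 and 0.44. Iigp1 was closer to Gbp2 (0.74) than to any other IRG member.

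One mouse carried much of this spread. Old replicate 3 was the highest old mouse for 7 of the 8 tested members, as for Mx1, and its deviations averaged 0.38 on the log2 scale over the 8. The 9 members summed to 70.1 CPM in it, against 49.8, 52.6 and 51.9 CPM in old replicates 1, 4 and 5 and 26.2 to 31.5 CPM in the young mice. Without it, the median log2 fold change of the tested members was 0.84, and 6 members were called. For 27 of 28 pairs the log2 ratio of the 2 members overlapped between young and old mice, the exception being Iigp1 over Gbp7, where the old mean was higher by 0.62.

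The genes that make, sense and relay interferon were then read in their order of action, in lists that were drawn up with earlier results of these data known. Of all genes tested, 6.2% rose and 4.83% fell at an adjusted p under 0.05. The interferon transcripts in the list were at or near 0. Of the Ifna genes, only Ifna2 and Ifna4 were in it. Of 8 ligand genes, Ifnb1, Ifna2, Ifna4, Ifnl2, Ifnl3 and Ifne had no count in any library, Ifng had 0.071 CPM in old replicate 3 and 0 elsewhere, and Ifnk ranged from 0 to 0.124 CPM. A count of 0 allows up to 0.145 to 0.212 CPM (3 counts per library), so no level below this can be told from 0 for the 6 genes without a count. Of 6 receptor subunits, Ifngr1, the ligand-binding chain of the interferon gamma receptor, rose by 0.35 on the log2 scale (edgeR adjusted p = 0.029), and its partner Ifngr2 fell by 0.22 (edgeR adjusted p = 0.025). The type I receptor chains Ifnar1, with the most counts, and Ifnar2 had log2 fold changes of -0.03 and 0.04.

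Of 14 signalling and transcription factor genes, 13 were tested and 6 rose, where 6.2% of all genes tested did. Irf7, the factor that amplifies type I interferon, had the highest fold change. It measured 1.15, 1.99, 1.99, 2.46 and 2.16 CPM in the young mice and 6.69, 14.03, 7.71 and 4.52 CPM in the old mice, a log2 fold change of 2.06 (SE 0.290, edgeR adjusted p = 0.00069). Old replicate 3 was again the highest mouse. Nlrc5, the activator of MHC class I genes, had a log2 fold change of 1.57, Irf8 one of 0.78, Irf9 one of 0.36 and Jak2 one of 0.27. Jak1 and Jak2 took the most counts, and Jak1 had a log2 fold change of -0.02. The median over the 13 was 0.27.

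Of 9 brakes on the pathway, 3 rose, beside 6.2% of all genes tested. Usp18, the ISG15 protease that also blocks the type I receptor, rose by 1.42 on the log2 scale, Socs3 by 0.72 and Pias1, with the most counts, by 0.12. Socs1 had a log2 fold change of 0.02 (SE 0.214).

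Next came the machinery on which IRG and GBP proteins depend. Of 19 genes that steer GTPases to vacuoles or mark these (the ATG8 conjugation genes, ubiquitin adaptors and galectins), 1 rose and 1 fell, shares near the 6.2% and 4.83% of all genes tested, with a median log2 fold change of 0.01. The galectin Lgals3, which binds broken vacuoles and is also a marker of activated microglia, rose by 1.99 (edgeR adjusted p = 0.0036), and the ATG8 gene Map1lc3a fell by 0.23 (edgeR adjusted p = 0.0029). Gabarapl1 and Sqstm1, with the most counts, had log2 fold changes of 0.01 and 0.06. Of 14 inflammasome genes downstream of GBPs, 10 were tested and 3 rose. These were the protease gene Casp1 (1.29), the nucleic acid sensor Zbp1 (1.90) and the DNA sensor Aim2 (0.51). Zbp1 reached 10 counts in 0 of the 5 young libraries and was tested only through the old group. Ninj1 and Il18, with the most counts, had log2 fold changes of 0.01 and 0.15.

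**Figure D4:**
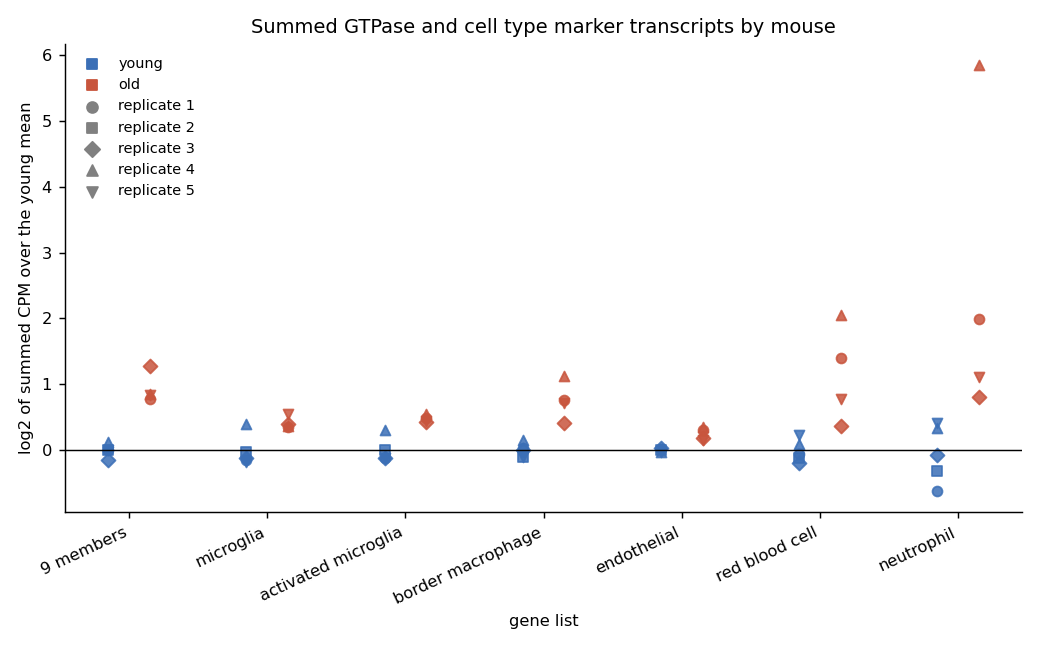
Log2 of the summed CPM of each gene list (x axis) over its mean in young mice (y axis), 1 point per mouse, coloured by age and shaped by replicate number. Old replicate 3 (diamond) is highest for the 9 members and lowest among old mice for the border macrophage, red blood cell and neutrophil markers.

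Markers of several cell types moved with age as well, and their values stand beside those of the members. For comparison, 6.2% of all genes tested rose and 4.83% fell at an adjusted p under 0.05. The 10 microglia markers summed to 290 ± 52.6 CPM (SD) in the 5 young mice. In the 4 old mice they summed to 388 ± 24.6 CPM (SD), a ratio of 1.34, and 4 of 10 rose. The 10 markers of activated microglia had a ratio of 1.39 and 5 of 10 rose, with most counts on Apoe, which astrocytes also express and which sets the ratio of the sum. Its 5 genes that rose had log2 fold changes of 2.52 (Gpnmb), 1.99 (Lgals3), 1.06 (Cd68), 0.47 (Apoe) and 0.29 (Axl). The median was 0.93 over all 10 and 0.47 over the 7 that the young libraries alone would have kept, which leaves out Itgax, Clec7a and Cst7. These 3 stood apart in young replicate 4, where Itgax had 201 counts against 1 to 5 in the other young libraries, Clec7a 151 against 3 to 5 and Cst7 80 against 2 to 6. Young replicate 4 was also the highest young mouse for genes that rose, with Gpnmb at 7.68 CPM against 1.57 to 3.09, Lgals3 at 3.24 against 0.55 to 1.24, and Cd68 at 10.8 against 4.97 to 5.31. The astrocyte gene Gfap was 514 CPM there and 191 to 221 CPM in the other young mice. The 8 endothelial markers, led by Flt1, had a ratio of 1.19 and 4 of 8 rose. The 6 border macrophage markers, led by Mrc1, had a ratio of 1.71 and 3 of 6 rose. Their median log2 fold change was 0.91, and 0.60 without Pf4 and Ms4a7, which were tested only through the old group. The astrocyte sum had a ratio of 1.16, where only Gfap of 8 rose and Aldoc took the most counts. The ratio was 1.11 for oligodendrocyte (led by Mbp, 2 of 6 rose and 1 fell), 0.99 for neuron (led by Snap25, 2 of 8 fell) and 1.02 for choroid plexus markers (led by Ttr, 1 of 6 fell). All these markers had counts. The summed IRG members had a ratio of 2.04 and the summed GBP members one of 1.79. The part of these cells in the members' difference was not tested.

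Blood was present in uneven amounts. The 5 red blood cell markers, led by Hbb-bs, all rose and summed to 98.9 ± 11.9 CPM (SD) in the 5 young mice and to 262, 128, 409 and 170 CPM in old replicates 1, 3, 4 and 5. Neutrophil markers, led by S100a9, summed to 0.941 to 1.91 CPM in the young mice, 83.0 CPM in old replicate 4 and 2.54 to 5.74 CPM in the other old mice. All 3 of the 6 that could be tested rose, and these too were tested only through the old group. The defining marker Ly6g had 5 counts in old replicate 4 and 0 in every other library. Old replicate 3, with the highest members, had the lowest old value of both lists. Without old replicate 4 the median log2 fold change of the tested members was 0.97. The part of blood in the members' difference was not tested. The 11 T cell markers summed to 7.68 ± 0.957 CPM (SD) in the 5 young mice and to 8.75 ± 0.486 CPM (SD) in the 4 old mice, most of it Cd4. Cd4 and Trac, the 2 that could be tested, had log2 fold changes of -0.13 and -0.23 (edgeR adjusted p = 0.61 and 0.67). Of the 9 markers too sparse for the test, 5 had every old mouse above every young mouse in CPM. These were Cd3d, Cd3g, Cd8a, Cd8b1 and Ccl5. The same order held for 1.49% of the 8318 untested genes with total counts in the range of these markers (5 to 47). Part of it rests on equal counts that differ in CPM only through library size. Cd3d had 2 counts in young replicate 1 and in old replicates 3 and 4. Cd8b1 had 2 in young replicate 1 and in old replicate 1. Cd8a was 0 to 0.157 CPM in the young mice and 0.319, 0.917, 0.274 and 0.939 CPM in the old mice.

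Within an age, the Pearson r over 9 mice between the mean deviation of the 8 tested members and that of the list sum was 0.23 for microglia, 0.17 for activated microglia, 0.16 for T cells, -0.14 for astrocytes, -0.48 for endothelial cells, -0.44 each for border macrophages and red blood cells and -0.26 for neutrophils. It was 0.25 for neurons, 0.12 for oligodendrocytes and 0.06 for choroid plexus. For the lists of the pathway it was 0.75 for the summed brakes, 0.69 for the signalling genes, 0.50 for the receptors, -0.04 for the inflammasome genes and -0.50 for the vacuole genes. The brakes that rose had lower values of their own, 0.30 for Socs3, 0.12 for Usp18 and -0.01 for Pias1. It was 0.51 for the other GBP genes and 0.40 for the other IRG genes, whose sum is nearly all Irgq. Young replicate 4 had microglia markers of 382 CPM, while its age mates had 255 to 284 CPM, a ratio of 1.43. Its summed IRG members were 1.09 times and its summed GBP members 1.147 times the mean of the other young mice. Without young replicate 4, 7 members were called and the median of the tested members was 0.97. The part of microglia in the members' difference was not tested.

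Of 14496 genes with a mean log2 CPM of at least 1, those whose deviations within an age were most like the mean of the members over the 9 mice were Twf1 (r = 0.98), Dnajc24 (0.97), Hint3 (0.96), Utp14b (0.96) and Htr4 (0.96). Twf1, an actin-binding protein gene, overlaps Irak4 on the opposite strand and had a log2 fold change of 0.14 (edgeR adjusted p = 0.048). The fold changes of the other 4 lay between -0.25 and 0.05. With 9 mice and this many genes, the 5 values are a description of these libraries.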

How the data were processed

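PolyA RNA-seq counts from 5 young (3 months by the labels) and 4 old (33 months) brains were used. The deposited counts are whole numbers per Ensembl gene, which the authors made by trimming with Trimmomatic, alignment to GRCm38 with STAR and counting of uniquely mapped exonic reads with featureCounts. Strand-specific counting is stated only for strand-specific libraries, so reads of genes that overlap on opposite strands (such as Gbp2 and Mir6381, Irf7 and Phrf1, Nlrc5 and 9330175E14Rik, Usp18 and Gm44148, Dnm2 and Tmed1, Dnm1l and Gm49521, Twf1 and Irak4, and Dnajc24 and Dcdc5) may not be told apart. The authors also deposited TPM, with gene lengths not given in the sources used here, and normalized counts, which were not used. Of the columns of per-sample values, 1 in each file, named as an old replicate 2, matched no listed sample and was not analysed here.

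Genes were kept with filterByExpr (minimum count 10, minimum total 15; 18492 of 49315), normalized with TMM and tested with edgeR's quasi-likelihood test and Benjamini-Hochberg adjustment. A gene was called where its adjusted p was under 0.05 and its log2 fold change over 0.58 in either direction. CPM are counts scaled to the library total over the tested genes times the TMM factor, with a prior count of 2 on the log2 scale. Standard errors came from the fold change and the test statistic (median 0.084). R 4.3.3 was used with edgeR 4.0.16, DESeq2 1.42.0 and limma 3.58.1. Positions and symbols came from GENCODE M21, and 259 genes had no symbol. On simulated counts for these 18492 genes, 91.5% of 200 genes changed by a log2 fold change of 1 were recovered, 5.67% of calls were unchanged genes, and 0 genes were called where none was changed. Libraries of one age differed beyond sampling noise (chi-square over its degrees of freedom 4.04 or more), so each was 1 replicate.

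The 9 members and all lists were chosen with earlier results of these data known. Named are the members, list genes with an adjusted p under 0.05, the 2 most abundant genes of a list, ligands at 0, protein-coding neighbours, and the 5 genes most like the members; Gm8979 was moved from the IRG to the giant GTPase list after its position was seen. Results for a few single genes of the lists are not reported here. Further genes in the text were picked once their values were known. Alternatives were other size factors, DESeq2, limma on log2(TPM + 1) and log2(TPM + 0.1), no filter, other thresholds, a replicate block and each mouse left out. A robust fit was added after the data were seen.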

Additional observations from a re-analysis of the deposited data

Results flagged for a closer look

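In 3 of 38 groups of values, 1 mouse stood apart from the rest of its age by Dixon's test (the gap to the nearest mouse over the whole range), where chance gives about 1 in 20. The log2 CPM of Gbp7 in old replicate 3 had a gap of 0.871 of the range of the 4 old mice. The log2 CPM of Mx2 in young replicate 2 had a gap of 0.776 of the range of the 5 young mice and was the lowest. The log2 summed CPM of the microglia markers in young replicate 4 had a gap of 0.737 of the range of the 5 young mice and was the highest.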

How the results depend on the processing

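The calls of Irgm1, Irgm2, Igtp, Iigp1, Gbp2 and Gbp3 kept their direction and an adjusted p under 0.05 in all 17 alternative fits. In old against young brain 495 genes were called (421 higher, 74 lower), 2039 without the fold threshold and 270 at an adjusted p under 0.01, and 392 to 604 with each mouse left out. The median of the tested members was 0.95, 0.64 on log2(TPM + 1), where the median of all genes was -0.14, and 0.84 to 1.05 with each mouse left out (0.84 without old replicate 3). The 7 called members were 6 to 8 with each mouse left out, 6 on both TPM scales and 6 at an adjusted p under 0.01. They were 8 without old replicate 4, where Mx1 passed the filter. Mx1 was below the minimum count in every young library, so it was tested in that fit only through the old group, where it is high. On log2(TPM + 1) the calls split into 217 higher and 163 lower, and on log2(TPM + 0.1) into 299 and 264. Gbp7 had limma adjusted p of 0.39 and 0.41 on the TPM scales and a log2 fold change under 0.58 without young replicate 3 (0.53), young replicate 5 (0.56) or old replicate 3 (0.45). With every gene with a count kept, 692 genes were called, Mx1 had a log2 fold change of 1.98 (edgeR adjusted p = 0.0021), and Gbp7 one of 0.57. The adjusted p of Mx2 ranged from 0.051 to 0.39. The causes were not tested.

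With the replicate number as a block, 470 genes and 7 members were called, and the median was 0.96. The numbers did not pair the mice, since deviations of same-numbered mice had correlations of 0.17, -0.12, 0.09 and -0.02, so this fit is only an alternative. The robust fit, chosen after the data were seen, called 463 genes and 7 members. Mx1 and the ligands had at most 21 and 2 counts in a library, and whether depth limited them was not tested.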
